A study of Mus musculus with 28 samples.

Results

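Cathepsins are the proteases of the lysosome, and the 10 described here are *Ctsa*, *Ctsb*, *Ctsc*, *Ctsd*, *Ctsh*, *Ctsk*, *Ctsl*, *Ctss*, *Ctsw* and *Ctsz*. They were taken by symbol from the 49585 gene features of the count table, and all 10 passed the filter on low counts that left 21583 genes. Read counts came from the livers of 28 C57BL/6JOlaHsd mice aged 5 to 7 months, with 7 mice in each of 4 groups, which were males and females that were either wild type (WT) or carried a SIRT6 transgene (SIRT6-tg). The SIRT6-tg mice were of a single transgenic line and the WT mice were their littermates, per the study's methods. The labels do not name the promoter of the transgene. The comparison asks how overexpression of the deacylase SIRT6 changed cathepsin mRNA in each sex, and whether cathepsins of immune cells differed from those made by most cell types.

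Cathepsins are made as inactive precursors, sorted to lysosomes largely by the mannose 6-phosphate receptors, and activated by cleavage in the acid lumen. Most are cysteine proteases, whereas cathepsin D is an aspartic protease and cathepsin A a serine carboxypeptidase. In the liver, hepatocytes and Kupffer cells both hold several of them, while cathepsin S belongs mainly to antigen-presenting cells, cathepsin W to cytotoxic lymphocytes and cathepsin K to osteoclasts and mesenchymal cells.

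Levels are given as CPM (counts scaled to a common library total) after TMM scaling, and a gene was called changed when edgeR's quasi-likelihood test gave a Benjamini-Hochberg adjusted p under 0.05 over all genes tested. Total counts ranged from 18758863 to 35393069 per library. *Sirt6* averaged 2.73 ± 0.51 CPM (SD, n = 7) in male WT and 281 ± 55.2 CPM in male SIRT6-tg livers, and 2.88 ± 1.55 CPM in female WT and 30.2 ± 12.5 CPM in female SIRT6-tg livers. Every SIRT6-tg library lay above every WT library of its sex, and the 7 hepatocyte markers, led by *Alb*, summed to at least 99117 CPM in each library. Under TMM the median log2 fold change of all genes was 0.06 between male genotypes, 0.03 for the difference between the sexes in genotype effect and −0.00326 between WT males and WT females. Scaled by library size alone it was −0.22, −0.25 and 0.19. The share of calls that were higher changed with this choice too, from 46.8% to 4.89% between male genotypes, from 23.9% to 1.40% for the difference in genotype effect, from 53.8% to 86.8% between WT sexes and from 55.9% to 39.01% between SIRT6-tg sexes. With 2 surrogate variables it was 60.7% between male genotypes and 52.4% for the difference in genotype effect.

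Cathepsin mRNA was abundant in all 4 groups. Levels of different genes were compared per exonic length, as CPM per kilobase. This length merges all annotated exons of a gene, with 1358 bases for *Ctss*, 1441 for *Ctsz*, 6051 for *Ctsb* and 6489 for *Ctsl*. The order of genes and their shares depend on this divisor. In plain CPM the male WT means of *Ctsb* (867) and *Ctsl* (687) were above that of *Ctsz* (296). Over the 28 libraries *Ctsz* was highest at 182 CPM per kilobase, a level above that of 98.8% of 21518 genes. *Ctsb* followed at 135, *Ctsd* at 109 and *Ctsl* at 104. *Ctss* and *Ctsh* were level at 63.9 and 63.8 CPM per kilobase, with *Ctsa* at 36.5 and *Ctsc* at 27.4. The remaining pair, *Ctsk* at 0.73 and *Ctsw* at 0.66, stood near the middle of all genes, above 49.5% and 48.2% of them. The 8 abundant members thus all exceeded at least 93.5% of the genes.

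The order within a group depended on sex and genotype mainly through *Ctss* and *Ctsc*. In male WT livers *Ctss* ranked between *Ctsd* and *Ctsl* with 114 ± 60.5 CPM per kilobase, and its range of 58.0 to 222 overlapped those of both neighbours. In male SIRT6-tg livers it had dropped below *Ctsh* and *Ctsa* to 36.4 ± 10.4, although its range of 26.8 to 53.6 overlapped that of *Ctsa* (35.8 to 42.7). In both female groups it stood just below *Ctsh*, at 57.9 ± 18.6 in WT and 47.0 ± 17.3 in SIRT6-tg livers. *Ctsc* stood below *Ctsa* without overlap in both male groups, at 21.3 ± 6.67 and 14.8 ± 2.43 CPM per kilobase, whereas the ranges of these genes overlapped in both female groups. *Ctsz* stood above *Ctsb* without overlap in both male groups, while in females their ranges overlapped. The levels of *Ctsb*, *Ctsd* and *Ctsl* did not separate beyond their spread in male livers.

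**Figure D1:**
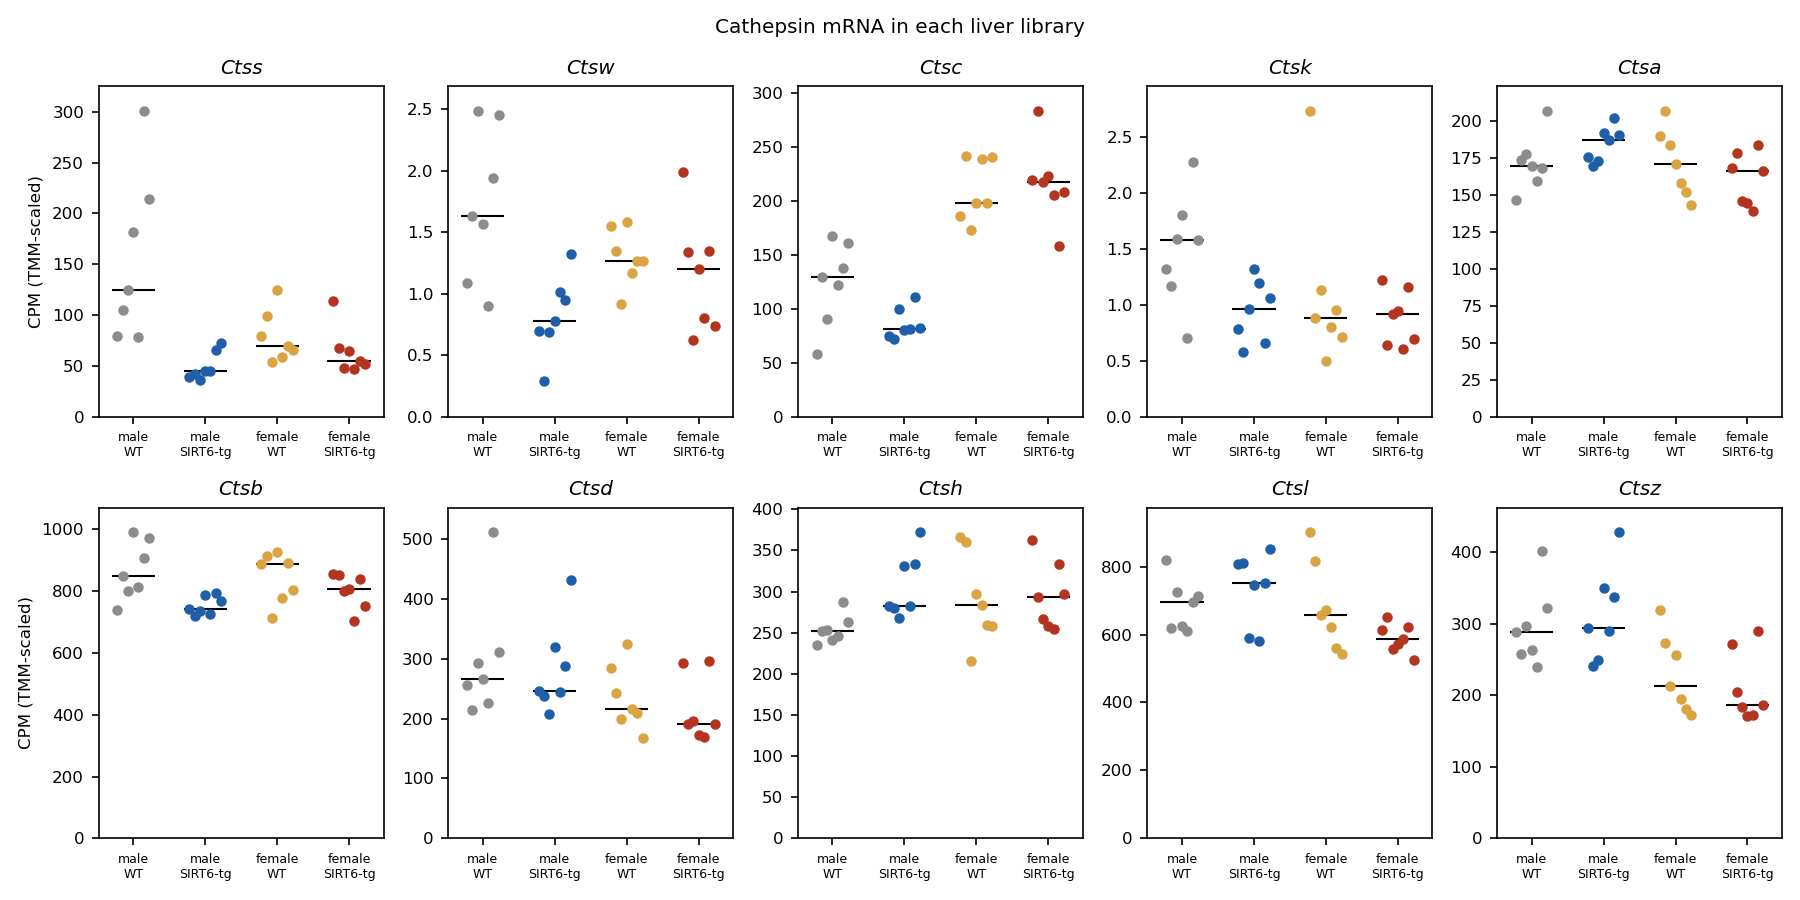
Cathepsin mRNA in 28 liver libraries, in TMM-scaled CPM on linear axes that start at 0, with 1 panel per gene, 1 point per library and a bar at the median of each group of 7. The 7 male SIRT6-tg points of *Ctss* (36.4 to 72.8 CPM) lie below all 7 male WT points (78.8 to 301 CPM), and *Ctsc* lies lower in both male groups than in the WT females.

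In males, 3 of the 10 cathepsins were lower in SIRT6-tg than in WT livers and 0 were higher, where 11.0% of all genes tested were called lower and 9.68% higher. The 3 were *Ctss*, *Ctsw* and *Ctsc*, which are all the members listed as immune cathepsins. *Ctsc* went apart from *Ctss* between the WT sexes, being lower in males (log2 fold change −0.77) where *Ctss* was higher (0.98). None of the 6 widely expressed members was called, nor was *Ctsk*. The median log2 fold change was −1.09 over the 3 immune cathepsins and 0.09 over the 6 widely expressed ones, against 0.06 over all genes. Counted on 10 genes whose earlier results were known, these figures are a description of the list. In females 0 of the 10 were called by edgeR, which called 0.0278% of all genes in either direction. By the same test 0 of the 10 had an unadjusted p under 0.05, as 1212 of 21583 genes did, and DESeq2 called 0 of the 10, with 24 genes higher and 20 lower of 16980. The female medians were −0.18 over the immune and −0.11 over the widely expressed cathepsins.

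*Ctss* (ENSMUSG00000038642.10, chr3:95526786-95556403, plus strand, GRCm38 here and for the other members) encodes cathepsin S, the protease that trims the invariant chain from MHC class II molecules in antigen-presenting cells. Its level ran from 78.8 through a median of 124 to 301 CPM in male WT livers, and from 36.4 through 44.7 to 72.8 CPM in male SIRT6-tg livers. All 7 male SIRT6-tg livers were below all 7 male WT livers, which 4.37% of genes showed in that direction. The means were 155 ± 82.2 and 49.4 ± 14.1 CPM, a log2 fold change of −1.65 (standard error (SE) 0.27, 95% interval −2.21 to −1.09, adjusted p = 5.71e-05, edgeR), or 3.14-fold lower. The WT spread was wide, with replicate 6 at 301 CPM, and without that library the log2 fold change was −1.40 (adjusted p = 0.000179).

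In females *Ctss* ran from 54.0 through 69.3 to 125 CPM in WT livers and from 46.8 through 54.6 to 114 CPM in SIRT6-tg livers. The groups overlapped, with 3 of 7 SIRT6-tg livers below every WT liver. The log2 fold change was −0.30 (95% interval −0.85 to 0.25, adjusted p = 1.00, edgeR), so a fall of up to 0.85 on the log2 scale cannot be told from no change here. Without SIRT6-tg replicate 1 the female *Ctss* value was −0.50 and without WT replicate 4 it was −0.15, with 0 calls in either fit. In females 0.0417% of all genes had every SIRT6-tg liver below every WT liver, and 0 of the 10 cathepsins did.

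The male effect on *Ctss* exceeded the female effect by −1.35 on the log2 scale (SE 0.38, 95% interval −2.13 to −0.57, adjusted p = 0.0339, edgeR). It was the 1 member of 10 called for a more negative effect in males, against 3.84% of all genes, and 0 were called for a more positive one, against 1.20%. This call was close to the threshold. It was lost in 13 of the 28 fits that left out 1 library, those without male WT replicates 4, 6 or 7, male SIRT6-tg replicates 1, 2, 3, 4 or 5, female WT replicates 3, 5 or 7, or female SIRT6-tg replicates 1 or 4. Over the 28 fits the *Ctss* difference stayed between −1.50 and −1.10, with adjusted p from 0.0123 to 0.0628. It was also lost with no filter on low counts (adjusted p = 0.0699). *Sirt6* itself rose by 6.68 on the log2 scale in male and by 3.39 in female SIRT6-tg livers. Sex and the degree of overexpression therefore cannot be told apart in any difference in genotype effect between the sexes given here.

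*Ctsw* (ENSMUSG00000024910.4, chr19:5465043-5468507, minus strand), which encodes the cathepsin W of cytotoxic T and natural killer cells, had a low level, with 7 to 99 raw counts per library. In male WT livers it ran from 0.90 through 1.63 to 2.49 CPM and in male SIRT6-tg livers from 0.29 through 0.78 to 1.33 CPM. The groups overlapped, although 4 of 7 SIRT6-tg livers lay below every WT liver. The log2 fold change was −1.09 (SE 0.27, adjusted p = 0.00325, edgeR). In females *Ctsw* averaged 1.30 ± 0.23 CPM in WT and 1.15 ± 0.48 CPM in SIRT6-tg livers, a log2 fold change of −0.18 (95% interval −0.72 to 0.36). The difference between the sexes in this effect was −0.91, which did not pass the test (adjusted p = 0.169). The *Ctsw* difference passed with library size alone (−1.22, adjusted p = 0.0343) and with 2 surrogate variables (−1.07, adjusted p = 0.0178).

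*Ctsc* (ENSMUSG00000030560.17, chr7:88278085-88310888, plus strand) encodes cathepsin C, or dipeptidyl peptidase 1, which activates the serine proteases of leukocyte granules. It ran from 57.9 through 130 to 168 CPM in male WT livers and from 71.8 through 81.8 to 111 CPM in male SIRT6-tg livers. The groups overlapped, and no SIRT6-tg liver lay below the lowest WT liver. The log2 fold change was −0.53 (SE 0.16, 95% interval −0.86 to −0.20, adjusted p = 0.0184, edgeR). In females *Ctsc* was at 211 ± 28.8 CPM in WT and 217 ± 36.8 CPM in SIRT6-tg livers, a log2 fold change of 0.04 (95% interval −0.29 to 0.37). The sexes' effects differed by −0.57 (adjusted p = 0.158), which did not pass the test. The *Ctsc* difference passed with library size alone (−0.87, adjusted p = 0.0204) and without male WT replicate 1 (−0.71, adjusted p = 0.0186).

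The 6 widely expressed members moved little in males. *Ctsb* (ENSMUSG00000021939.7, chr14:63122462-63145923, plus strand), an abundant cysteine protease of many cell types, was at 867 ± 93.2 CPM in WT and 753 ± 29.7 CPM in SIRT6-tg livers, with 3 of 7 SIRT6-tg livers below every WT liver. Its log2 fold change of −0.20 had a 95% interval of −0.37 to −0.04 and an adjusted p of 0.0658 by edgeR. This call turned on the settings, since the adjusted p of *Ctsb* was under the threshold with RLE scaling (0.0323), upper-quartile scaling (0.0132), library size alone (4.22e-05), filterByExpr (0.0361), DESeq2 (0.00565) and 2 surrogate variables (0.00875), and without male WT replicate 1 or 3 (lowest 0.0190). *Ctsh* (ENSMUSG00000032359.14, chr9:90054152-90076089, plus strand), an aminopeptidase, was at 254 ± 17.3 CPM in WT and 307 ± 38.9 CPM in SIRT6-tg livers, and 3 of 7 SIRT6-tg livers lay above every WT liver. Its log2 fold change was 0.27 (95% interval 0.05 to 0.49, adjusted p = 0.0705), and −0.02 with library size alone. The adjusted p of *Ctsh* was 0.0471 without male WT replicate 6 and 0.0114 with 2 surrogate variables.

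The other widely expressed members had male intervals that contained 0. *Ctsd* (ENSMUSG00000007891.16, chr7:142375911-142388038, minus strand), the main aspartic protease of lysosomes, was at 297 ± 100.4 CPM in male WT and 282 ± 75.3 CPM in male SIRT6-tg livers, a log2 fold change of −0.08 (95% interval −0.45 to 0.30). Its highest values were those of male WT replicate 6 (512 CPM) and male SIRT6-tg replicate 7 (432 CPM), and without the former the log2 fold change was 0.11. With 2 surrogate variables *Ctsd* was called lower (log2 fold change −0.24, adjusted p = 0.00338). In males *Ctsa* was at 171 ± 18.5 CPM in WT and 184 ± 11.9 CPM in SIRT6-tg livers, *Ctsl* at 687 ± 75.3 and 734 ± 108 CPM, and *Ctsz* at 296 ± 54.4 and 313 ± 64.98 CPM, with overlapping ranges for each. The log2 fold changes of *Ctsa*, *Ctsl* and *Ctsz* were 0.10, 0.10 and 0.08, and they turned to −0.19, −0.20 and −0.22 with library size alone, where the median of all genes was −0.22. *Ctsa* (ENSMUSG00000017760.15, chr2:164832873-164841032, plus strand) encodes a carboxypeptidase that also protects other lysosomal enzymes. *Ctsl* (ENSMUSG00000021477.8, chr13:64359337-64370890, minus strand) encodes a broad endopeptidase. *Ctsz* (ENSMUSG00000016256.10, chr2:174427493-174439039, minus strand) encodes a carboxypeptidase. The upper limit of the 95% interval was 0.29 for *Ctsa*, 0.32 for *Ctsl* and 0.39 for *Ctsz*.

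*Ctsk* (ENSMUSG00000028111.4, chr3:95499256-95509362, plus strand), the collagenase of osteoclasts that is also found in fibroblasts, had 12 to 67 raw counts per library. In males it was at 1.49 ± 0.50 CPM in WT and 0.94 ± 0.28 CPM in SIRT6-tg livers, with 2 of 7 SIRT6-tg livers below every WT liver. The log2 fold change was −0.67 (95% interval −1.25 to −0.09, adjusted p = 0.0965, edgeR). *Ctsk* passed the threshold with library size alone (adjusted p = 0.0118), with 2 surrogate variables (0.0420), with each sex fitted separately (0.0499) and without male WT replicate 5 (0.0490).

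In females the 7 members outside the immune class had log2 fold changes between −0.33 for *Ctsk* and 0.02 for *Ctsh*. The lowest unadjusted p of the 10 was that of *Ctsl* (0.0647, adjusted p = 0.927, edgeR), which was at 682 ± 132 CPM in WT and 590 ± 43.1 CPM in SIRT6-tg livers. The female *Ctsk* value rested on WT replicate 1 at 2.74 CPM, since without it the log2 fold change was 0.06.

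**Figure D2:**
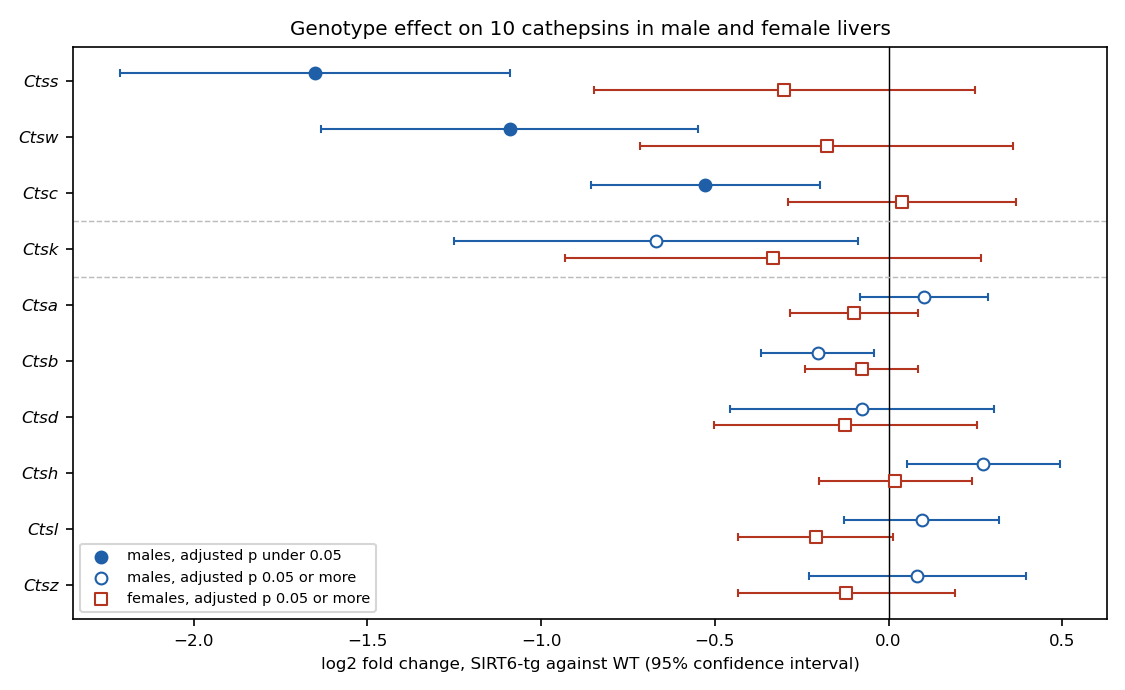
Log2 fold change of 10 cathepsins in SIRT6-tg against WT livers, in males (blue circles) and females (red squares), with 95% confidence intervals and filled symbols for an adjusted p under 0.05. The 3 immune cathepsins above the upper dashed line are the filled ones, at −1.65, −1.09 and −0.53 in males, and *Ctsk* stands between the dashed lines.

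The change of *Ctss* was also measured against other cathepsins inside each library, a ratio that does not depend on scaling between libraries. The log2 ratio of *Ctss* to *Ctsb* counts ran from −3.37 through −2.69 to −1.59 in male WT livers and from −4.34 through −4.10 to −3.40 in male SIRT6-tg livers. All 7 SIRT6-tg livers lay below all 7 WT livers, with a mean difference of −1.33 (exact two-sided permutation test over 3432 splits, p = 0.000583, the smallest p that 7 against 7 allow). Against *Ctsd* the difference was −1.47 and against *Ctsl* −1.62, each with the same exact p. These ratios share *Ctss*, whose earlier results were known, and the same livers, so they add no separate evidence of its fall. In females the difference of *Ctss* to *Ctsb* was −0.23 (exact permutation p = 0.234), and it was −0.37 without female SIRT6-tg replicate 1 (exact permutation p = 0.0181). The ratio shows unequal change of its members and not which of them moved.

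The make-up of cathepsin mRNA shifted accordingly in males. *Ctss* made up 13.4 ± 4.58% of the summed CPM per kilobase of the 10 genes in male WT and 4.90 ± 0.79% in male SIRT6-tg livers, with ranges of 8.25 to 20.1% and 4.12 to 6.16%. The immune cathepsins together held 16.1 ± 4.81% and 7.00 ± 0.91%. *Ctsz* held 25.4 ± 1.72% in WT and 29.4 ± 2.06% in SIRT6-tg livers. In females the immune share was 13.6 ± 1.87% in WT and 13.1 ± 2.17% in SIRT6-tg livers, and *Ctss* held 8.16 ± 1.72% and 7.17 ± 1.79%. The summed level of the 10 genes was 811 ± 154 and 734 ± 109 CPM per kilobase in male WT and SIRT6-tg livers, and 701 ± 111 and 647 ± 89.0 in the female groups, so the sums overlapped.

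**Figure D3:**
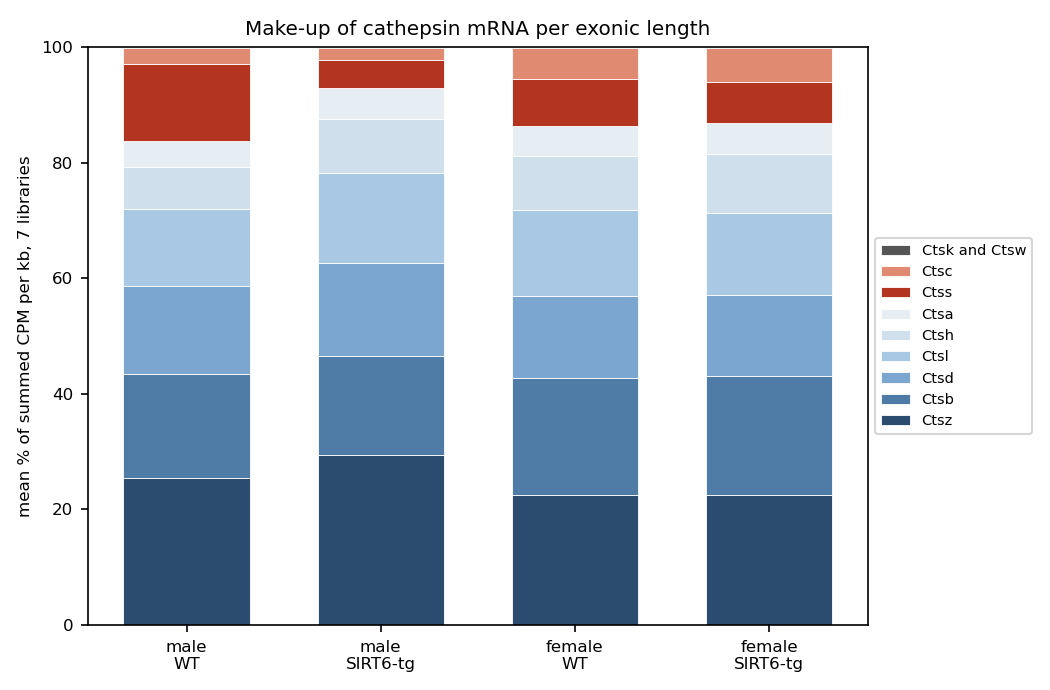
Mean share of each cathepsin in the summed CPM per kilobase of the 10 genes, as stacked bars from 0 to 100% for the 4 groups of 7 libraries. *Ctss* and *Ctsc* are in red, the widely expressed cathepsins in blue, and *Ctsk* and *Ctsw* together in grey, too low to see. The immune cathepsins, with *Ctsw* included, hold 7.00% in male SIRT6-tg livers and 13.1% to 16.1% in the other groups.

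*Ctsc* differed between the sexes in both genotypes. In WT livers it was lower in males than in females, with all 7 males below all 7 females (log2 fold change −0.77, standard error 0.16, adjusted p = 0.00147, edgeR). In SIRT6-tg livers the difference was −1.33 (SE 0.16, adjusted p = 5.33e-07, edgeR), again without overlap. The share of all genes without overlap between the sexes was not counted. *Ctss* went the other way in WT livers, being higher in males (0.98, SE 0.27, adjusted p = 0.0149), with 3 of 7 males above every female. The call for *Ctss* was lost without male WT replicate 6 (0.73, adjusted p = 0.0557). Thus 1 of 10 cathepsins was lower in WT males, against 5.71% of all genes, and 1 was higher, against 6.65%. In SIRT6-tg livers the difference of *Ctss* was −0.37 (adjusted p = 0.340), and −0.77 with 2 surrogate variables (adjusted p = 0.00469).

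In SIRT6-tg livers 1 member (*Ctsc*) was lower in males, against 10.2% of all genes, and 2 were higher, against 12.9%. *Ctsz* was higher by 0.57 (SE 0.15, adjusted p = 0.00780, edgeR), with 5 of 7 males above every female. *Ctsl* was higher by 0.32 (SE 0.11, adjusted p = 0.0352). The call for *Ctsl* was lost with RLE scaling (adjusted p = 0.0538), upper-quartile scaling (0.118), library size alone (0.122) and no filter (0.0541). It was also lost in 8 of the 14 fits without 1 library, those without male SIRT6-tg replicates 1, 2, 4 or 7 or female SIRT6-tg replicates 3, 4, 5 or 7. In WT livers the difference of *Ctsz* was 0.36 (adjusted p = 0.126), which passed with library size alone (0.57, adjusted p = 0.00317), with 2 surrogate variables (0.30) and without female WT replicate 1 (0.47, adjusted p = 0.0376). The male and female SIRT6-tg mice differed in their *Sirt6* level by 3.22 on the log2 scale, so sex and the degree of overexpression cannot be told apart in this comparison.

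The 3 windows of 250 bases before the RefSeq start sites (GRCm38.p6, written 5′ to 3′) are shown for 3 cathepsins. These are the most strongly lowered one, a second immune cathepsin and the one highest per exonic length, which was not called between genotypes. Capitals mark matches on either strand to 5 short motifs. CACGTG is the E-box at the core of the CLEAR element bound by TFEB. TTCNNNGAA is a gamma-activated site. GAGGAAG is a PU.1 core. GGGCGG is a GC box. TATAAA is a TATA box.
Ctss, chr3:95526536-95526785, plus strand: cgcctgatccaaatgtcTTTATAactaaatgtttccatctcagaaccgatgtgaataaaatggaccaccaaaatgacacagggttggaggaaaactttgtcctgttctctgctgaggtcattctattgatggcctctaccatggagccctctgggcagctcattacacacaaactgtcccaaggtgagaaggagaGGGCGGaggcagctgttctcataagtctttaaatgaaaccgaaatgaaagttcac
Ctsc, chr7:88277835-88278084, plus strand: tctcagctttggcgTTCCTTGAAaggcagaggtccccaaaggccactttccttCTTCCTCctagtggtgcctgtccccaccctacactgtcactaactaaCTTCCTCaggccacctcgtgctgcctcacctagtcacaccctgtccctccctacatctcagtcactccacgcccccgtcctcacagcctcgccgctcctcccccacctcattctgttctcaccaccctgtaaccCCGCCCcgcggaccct
Ctsz, chr2:174439040-174439289, minus strand: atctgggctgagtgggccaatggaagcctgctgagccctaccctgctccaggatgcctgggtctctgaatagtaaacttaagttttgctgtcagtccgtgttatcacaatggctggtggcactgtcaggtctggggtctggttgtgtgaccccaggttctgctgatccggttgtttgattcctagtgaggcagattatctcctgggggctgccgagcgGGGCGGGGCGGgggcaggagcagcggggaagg

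RefSeq promoters were matched for 7 of the 10 members, with 8 start sites. CACGTG was present before at least 1 start of *Ctsa*, *Ctsd* and *Ctsl*, all widely expressed, and in 6.02% of all 32851 promoter windows. It was found in none of the windows of *Ctss*, *Ctsc*, *Ctsk* and *Ctsz*. The matching windows of *Ctsa*, *Ctsd* and *Ctsl* contain annotated exons of the gene itself, whereas those of the other 4 genes contain none. *Ctsd* held it at 2 places, at positions −245 and −98 from the start. GAGGAAG, present in 10.6% of promoters, occurred at 2 places each before *Ctsc* and *Ctsk*, and TTCNNNGAA, present in 7.02%, occurred before *Ctsc* alone. The *Ctss* window held GGGCGG, found in 32.7% of promoters, and TATAAA, found in 12.4%, at position −233, and the 2 GGGCGG matches before *Ctsz* overlapped by 1 base. A match of letters is a description of the window and no evidence of binding. *Ctsk* and *Ctss* lie on the same strand of chromosome 3, with 17423 bases between them.

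Markers of several cell types were lower in male SIRT6-tg livers, as the immune cathepsins were, while those of other cell types were not. In bulk liver, fewer cells of a type and less RNA per cell cannot be told apart. Of the 10 macrophage and Kupffer cell markers, 9 were called lower in male SIRT6-tg livers and 0 higher, against 11.0% and 9.68% of all genes. Their median log2 fold change was −1.20, a value between those of *Ctss* and *Ctsc*. *Marco* was at −3.29, *Cd68* at −1.31, *Timd4* at −1.19 and *Adgre1* at −1.28, and *Cd163* (−0.45, adjusted p = 0.252, edgeR) was the one not called. Their summed level ranged from 433 to 1405 CPM in male WT and from 365 to 619 CPM in male SIRT6-tg livers, so the sums overlapped, and no marker of the list was at 0 in all libraries. In females the sums were 485 to 969 CPM in WT and 360 to 883 CPM in SIRT6-tg livers, and 0 of the 10 were called.

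Markers of T and natural killer cells fell in males for 8 of 10 genes, led by *Cd8a* (−3.67), *Cd3e* (−2.56), *Cd3g* (−2.38) and *Trac* (−2.39). Their summed level was 18.3 CPM at the lowest and 43.7 CPM at the median in male WT livers, and 7.72 CPM at the median and 9.24 CPM at the highest in male SIRT6-tg livers, so the sums did not overlap. Of the 7 dendritic cell markers, 5 fell, led by *Itgax* (−3.09) and *Flt3* (−1.98), and their sums of 18.1 to 33.6 CPM and 9.05 to 13.8 CPM did not overlap either. Of the B cell markers 4 of 5 fell, and of the stellate cell and fibroblast markers 7 of 8, led by *Col1a1* (−2.99). Of the neutrophil markers 1 of 5 and of the sinusoidal endothelial markers 1 of 6 were called lower, where 11.0% of all genes were. Of the hepatocyte markers 4 of 7 rose, against 9.68% of all genes, *Fgb* by 0.40 and *Alb* by 0.35. Of the cholangiocyte markers 0 of 5 were called. Of 7 markers of blood, pancreas and adipose tissue, 1 rose, *Alas2* by 0.42, and the other 6 were not called although the median of the list was −1.30. In females none of these lists had a called gene. The part of cell numbers in the values of *Ctss*, *Ctsw* and *Ctsc* was not tested.

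Once the group means were removed, the genes most like each member over the 28 livers differed from member to member, also within a class. *Ctss* varied most like *C1qa* (Pearson r = 0.966), *C1qc* (0.964) and *Tyrobp* (0.961), which encode complement C1q chains and a myeloid signalling adaptor, and r was 0.949, 0.949 and 0.948 without the 2 libraries farthest from the median. *C1qa* itself fell in males by 1.20 on the log2 scale (adjusted p = 0.00418, edgeR). *Map3k8* (0.791) and *Dram1* (0.770) were among the genes most like *Ctsc*, and *Ctsw* was nearest to *Trim47* (0.778), *Tpm3* (0.756) and *Slamf9* (0.747). These are descriptions over 28 libraries, and no test was made of them.

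The widely expressed members had other neighbours. *Ctsz* was nearest to *Tonsl* (0.974), *Eif6* (0.971) and *Sys1* (0.970), and *Ctsd* to *Ranbp1* (0.962), *Tceal9* (0.961) and *Atox1* (0.960). *Ctsh* varied most like *Cd302* (0.942), *Tmem126a* (0.923) and *Eif3h* (0.920). *Ctsb* was nearest to *Atp1b3* (0.844), *Ear2* (0.834) and *Kctd12* (0.819), *Ctsa* to *Eefsec* (0.825), *Ltbr* (0.824) and *Spg21* (0.820), and *Ctsl* to *Izumo4* (0.835), *Gm4285* (0.831) and *Adh5* (0.811). The low-count *Ctsk* was nearest to *Gm25517* (0.754), *Gpx8* (0.751) and *Gm37607* (0.748).

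Among the members themselves *Ctsd* and *Ctsz* varied together most closely (r = 0.91), followed by *Ctsh* and *Ctsz* (0.83). *Ctss* went with *Ctsd* (0.75) and *Ctsb* (0.74) across individual livers, although neither of these passed the test between male genotypes. *Ctsc* went with *Ctsb* (0.57) and *Ctss* (0.46), but its r was −0.05 to *Ctsd*, −0.09 to *Ctsz* and −0.32 to *Ctsl*. *Ctss* was thus closer to the widely expressed *Ctsd* and *Ctsb* than to *Ctsc*, which is listed with it as immune.

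**Figure D4:**
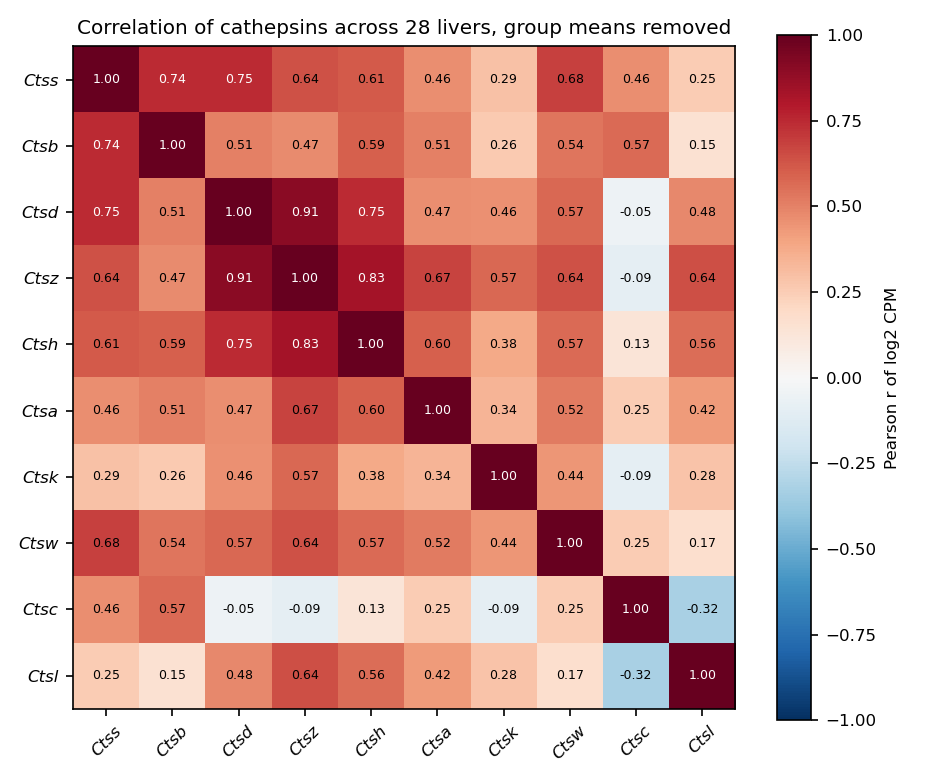
Pearson r of log2 CPM between each pair of cathepsins over 28 liver libraries after the mean of each group was subtracted, as a colour scale from −1 (blue) to 1 (red) with the value in each cell. *Ctsd*, *Ctsz* and *Ctsh* form a block of 0.75 to 0.91, and the *Ctsc* row holds the lowest values, down to −0.32.

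Other lysosomal genes were called in both directions in males, at shares near those of all genes (11.0% lower and 9.68% higher). Of 35 other lysosomal hydrolases 5 were lower and 3 higher in male SIRT6-tg livers, with a median log2 fold change of 0.02. Among them *Galns* (−0.64, adjusted p = 5.68e-05, edgeR) and *Ppt1* (−0.45, adjusted p = 0.000167) fell, whereas the sphingomyelinase *Smpd1* rose by 0.29 (adjusted p = 0.00166). Of 18 subunits and partners of the vacuolar ATPase, the proton pump that acidifies the lysosome, 2 were lower and 0 higher, namely *Tcirg1* (−0.42) and *Atp6v1b2* (−0.26). In females 0 genes of these lists were called.

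Of 15 genes that sort or mature cathepsins, 2 were lower and 2 higher in males, which is again near the shares of all genes. *Lgmn*, the asparaginyl endopeptidase that processes cathepsins B, H and L, fell from 137 ± 48.5 to 76.5 ± 14.5 CPM (−0.84, adjusted p = 0.00177, edgeR), and the sphingolipid activator precursor *Psap* fell by 0.39. The lysosomal membrane protein *Lamp2* rose by 0.32 and the channel *Mcoln1* by 0.26. *Tfeb*, the transcription factor that drives lysosomal genes, had a log2 fold change of 0.33 that did not pass the test (adjusted p = 0.141).

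Of 8 tested inhibitors of cathepsins 2 were lower and 1 higher in males, against 11.0% and 9.68% of all genes. *Cst7*, which encodes the leukocyte inhibitor cystatin F, went from 0.95 ± 0.51 to 0.10 ± 0.02 CPM (−3.13, adjusted p = 9.16e-06, edgeR), and *Ctla2b* fell by 1.19. The male SIRT6-tg values of *Cst7* were very low, at 0.08 to 0.12 CPM, so the size of its fall is uncertain. The liver-made kininogen *Kng1* rose by 0.28 (adjusted p = 0.0364). The general inhibitors *Cst3* (0.13) and *Cstb* (−0.17) were not called. Of the remaining 13 cathepsin genes of the mouse, 3 were expressed enough to test, and *Ctsf* rose from 25.2 ± 2.45 to 35.5 ± 5.55 CPM in males (0.49, adjusted p = 0.00552). *Ctso* (−0.08) and *Ctse* (−0.60) were not called, and 6 of the other 10 had no count in any library.

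Of the genes that work with the lowered cathepsins, the class II genes were all lower and the granule genes in part. The class II list holds MHC class II molecules with their regulator, chaperones and the thiol reductase *Ifi30*. All 9 of its genes were called lower in male SIRT6-tg livers, against 11.0% of all genes, with a median log2 fold change of −2.60. *Cd74*, the invariant chain that cathepsin S trims, was at 664 ± 371 CPM in male WT and 97.5 ± 27.8 CPM in male SIRT6-tg livers (−2.77, adjusted p = 1.26e-06, edgeR). *Ciita*, the class II transactivator, changed by −3.10, *H2-Aa* by −2.61 and *H2-DMb1* by −2.39. The effect was called more negative in males than in females for 8 of the 9, against 3.84% of all genes. In females 0 were called, with a median of −0.36. Like *Ctss*, all 9 were called higher in WT males than in WT females (median 1.70), against 6.65% of all genes. Of 9 tested granule genes, most of them serine proteases activated by cathepsin C, 4 were called lower in males, against 11.0% of all genes. These were *Gzmk* (−5.12), *Gzma* (−3.31), *Gzmb* (−2.59) and the pore-forming *Prf1* (−2.81), which is no protease, and *Gzmk* averaged 2.17 ± 1.01 CPM in WT and 0.06 ± 0.06 CPM in SIRT6-tg livers.

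**Figure D5:**
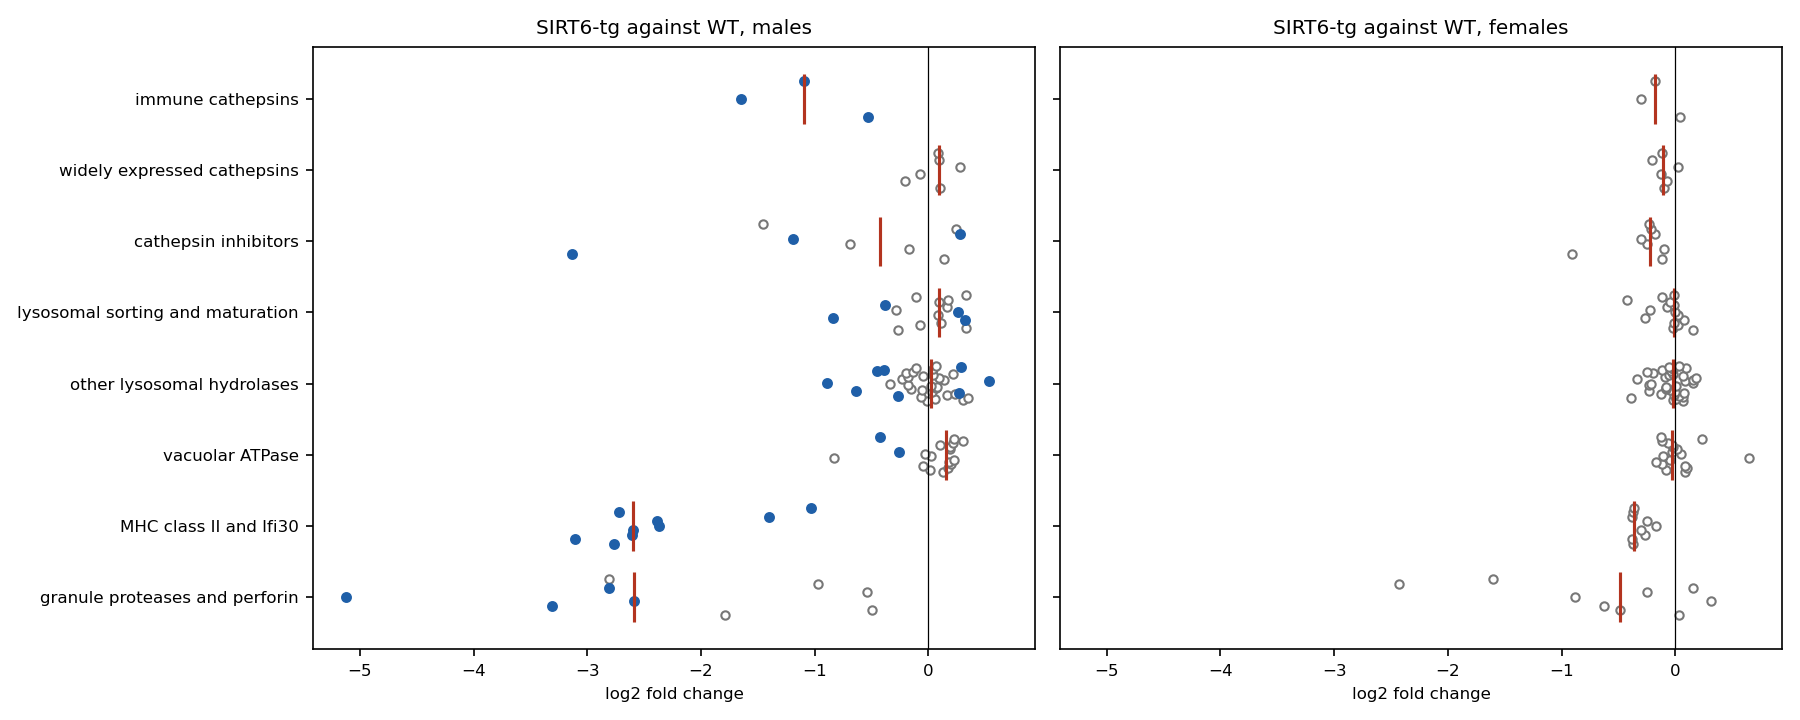
Log2 fold change in SIRT6-tg against WT livers of the tested genes of 8 lists, in males (left) and females (right), with 1 point per gene, filled where the adjusted p was under 0.05, and a red bar at the median of each list. In males the immune cathepsins, the class II genes and the granule genes have medians of −1.09, −2.60 and −2.59, and the widely expressed cathepsins 0.09, while in females no point is filled.

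Some members share exonic bases with other genes, and the library kit named in the labels does not mark the strand of a read. *Ctsb* shares 12.8% of its exonic bases with *Fdft1* on the opposite strand and *Ctsa* 10.5% with *Pltp* and 6.87% with *Neurl2*. *Ctsd* shares 34.4% with *Gm49369* on its own strand, a gene that had no counts, and *Ctsl* 26.8% with the antisense gene *Gm47123*. *Ctsw* and *Ctsz* share under 1% of their exonic bases with a neighbour. The levels of *Ctsa*, *Ctsb*, *Ctsd* and *Ctsl* are therefore uncertain to that extent, whereas *Ctss* shares no exonic base with another gene of the annotation.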

How the data were processed

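Liver RNA of 28 mice was sequenced in 4 groups of 7, and the labels gave sex, genotype and replicate number. Per the study's methods and the submitters' processing notes, single-end reads of an unstranded kit were aligned to mm10 with STAR 2.5.0a and unique reads were counted per gene with HTSeq. The authors deposited raw counts, without normalization. The strand setting is not given in the sources used here. The number of columns left unmapped was 0.

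Genes with a mean of at least 0.5 after DESeq2 size factors were kept. TMM factors scaled the libraries, and the test was edgeR's quasi-likelihood test (edgeR 4.0.16, R 4.3.3), with 4 groups in 1 fit and Benjamini-Hochberg adjustment over 21583 genes. The members, classes and lists were chosen with earlier results of these data known. Of 195 listed genes 194 were found. Symbols and exonic lengths came from Gencode vM21 on GRCm38, and promoters from RefSeq. The genes most like each member were the 3 with the highest Pearson correlation of group-centred log2 CPM (prior count 2), and at most 4 called genes with the lowest adjusted p were named per list, with further list members named for their role. Some genes that this rule names are not reported here. Alternatives were RLE, upper-quartile and library-size scaling, 2 filters, DESeq2 1.42.0, each sex alone, the replicate number as a block, 2 surrogate variables (sva 3.50.0) and each library left out. The scripts were tested on simulated data. Each library is 1 mouse.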

Additional observations from a re-analysis of the deposited data

Results flagged for a closer look

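The effect of the SIRT6 transgene on *Ctss* differed between the sexes by −1.35 on the log2 scale, males against females, in a test of the difference itself (adjusted p = 0.0339, edgeR), and this call was lost in 13 of 28 fits without 1 library. Sex and the degree of *Sirt6* overexpression cannot be told apart in this difference. Of 40 groups of 7 examined, 3 held a library that stood apart from the others, where chance gives about 1 in 20 groups. Male WT replicate 6 had 511.8 CPM of *Ctsd*, and it was also the highest of its group for *Ctss* (301 CPM) and *Ctsz* (402 CPM). Female WT replicate 1 had 2.74 CPM of *Ctsk*. Female SIRT6-tg replicate 1 had 114.1 CPM of *Ctss*.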

How the results depend on the processing

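The male calls of *Ctss*, *Ctsw* and *Ctsc* held under all alternatives run, and 0 of the 10 cathepsins were called in females under any of the 23. In males, 5 members were lower with library size alone (*Ctsb* and *Ctsk* added), against 18.9% of all genes. With 2 surrogate variables 6 were lower (*Ctsb*, *Ctsd* and *Ctsk* added), against 13.3%, and 1, *Ctsh*, was higher, against 20.5%. Without 1 library the male counts were 3 to 4 lower and 0 to 1 higher. For a more negative effect in males, 4 members were called with library size alone, against 8.51% of all genes. With surrogate variables 2 were called, against 7.01%. The count was 0 with no filter and 0 to 2 without 1 library. In WT livers, 2 members were lower in males with surrogate variables, against 11.0% of all genes. Higher in WT males were 4 with library size alone, against 16.9%, and 3 with surrogate variables, against 11.7%. Without 1 library 0 to 3 were higher (0 without male WT replicate 6, 3 without female WT replicate 1). In SIRT6-tg livers, 3 were lower in males with surrogate variables, against 11.1% of all genes. Instead of 2, 1 was higher in SIRT6-tg males with RLE, upper-quartile or library-size scaling and with no filter. The same held in the lowest of the fits without 1 library (1 to 2). With library size alone 8.78% of all genes were higher in SIRT6-tg males. The causes were not tested.

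With library size alone the male log2 fold changes turned negative for *Ctsa* (−0.187), *Ctsh* (−0.0200), *Ctsl* (−0.195) and *Ctsz* (−0.218), and *Ctsz* was at −0.00322 with upper-quartile scaling and −0.00921 with surrogate variables. Without 1 library, uncalled values changed sign in males for *Ctsd* (−0.223 to 0.109) and *Ctsz* (−0.0228 to 0.172), and in females for *Ctsc* (−0.0370 to 0.0998), *Ctsh* (−0.0425 to 0.0752) and *Ctsk* (−0.456 to 0.0550). The female log2 ratio of *Ctss* to *Ctsb* ran from −0.369 to −0.136.

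With the replicate number as a block (replicate block) the counts were as in the fit without it, with *Ctss* at −1.59 in males (adjusted p = 7.84e-05, edgeR) and −1.31 for the difference between the sexes (adjusted p = 0.0323). Same-numbered WT and SIRT6-tg libraries of a sex correlated from −0.28 to 0.27 in their deviations from the group means. Differently numbered libraries were not compared, so whether the numbers pair the mice was not tested. Depth limits *Ctsw* and *Ctsk*, with as few as 7 and 12 counts per library.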
